A study of Mus musculus with 9 samples.

Results

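The 10 genes described here encode alpha subunits of heterotrimeric G proteins, the switches that carry the signal of a G protein-coupled receptor into the cell. They are Gnaq, Gna11 and Gna14 of the Gq family, Gnai1, Gnai2 and Gnai3 of the Gi family, Gnao1 of the Go family, Gnaz of the Gz family, and Gnas and Gnal of the Gs family. They were taken by name from the 21536 genes of the deposited table of Dropseq counts, and all 10 were found in it. Dropseq captures single cells in droplets with barcoded beads and counts unique transcripts (UMIs) by their 3′ ends. The ganglia, which hold the sensory neurons of the face, were taken from FVB/N mice, all wild type and 3 to 6 weeks old by the labels, with a lower upper age in the study's methods, and 9 runs were made on pooled animals. Cells had been enriched for neurons on a percoll gradient and by depletion of non-neuronal cells. The table holds 6997 barcodes and 30491529 UMIs, from 1000 to 190815 per barcode, and its column names do not give the run. The 9 runs are therefore 1 pooled sample, no test between groups of cells was possible, and no p-value is given.

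An alpha subunit is active while it holds GTP and is switched off by its own GTPase activity, which RGS proteins speed up. Gq family subunits activate phospholipase C beta, Gs family subunits activate adenylyl cyclase, and Gi family subunits inhibit it, while Go and the beta-gamma dimers it releases act on calcium and potassium channels. In somatosensory neurons, receptors coupled to Gq and Gs are known for sensitizing nociceptors and for itch, and receptors coupled to Gi and Go, such as opioid receptors, for inhibiting them.

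Neurons were barcodes with 500 to 7500 genes, a UMI of at least 3 of the 6 genes Tubb3, Scn9a, Snap25, Nefl, Nefm and Uchl1, and no UMI of Epcam. This left 3855 neurons with a median of 3014 UMIs. They were put into 7 groups by gate genes, none of which is an alpha subunit, and the first gate that a cell met decided its group. The Trpm8 group (2 or more UMIs of the cold-sensing channel) held 244 neurons, the Mrgprd group (2 or more UMIs of this receptor of non-peptidergic nociceptors) 379, the Mrgpra3 group (1 or more UMIs of this itch receptor) 49 and the Nppb group (2 or more UMIs of this itch peptide) 57. The Cd34 group (1 or more UMIs of this surface antigen) held 320, the Nefh group (5 or more UMIs of the heavy neurofilament and no Trpv1) 450 and the Calca group (5 or more UMIs of the CGRP gene and 1 or more of the heat-sensing channel Trpv1) 916. The other 1440 neurons met no gate and were shallower, with a median of 1826.5 UMIs against 3406 to 5835.5 in the 7 groups. Of the gated neurons, 349 met over 1 gate. These made up 149 of the 244 Trpm8 neurons, of which 128 also met the Nefh gate.

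The groups were checked against marker genes that took no part in the gates of the 7 groups. Of these, Nefl and Nefm were among the 6 genes that defined neurons. The summed level of Foxp2, Gpr26 and Lxn was 4028 UMIs per 1000000 UMIs (CPM) in the Trpm8 group and at most 3097 CPM, in the Mrgpra3 group, elsewhere. That of Lpar3, Prkcq and Cd55 was 1887 CPM in the Mrgprd group and 29.2 to 1089 CPM in the other 6. That of Sst, Il31ra, Nts and Jak1 was 4902 CPM in the Nppb group and at most 944 CPM in the other 6. That of Tac1, Trpa1 and Adcyap1 was 8405 CPM in the Calca group and at most 2296 CPM in the other 6. In the neurons that met no gate this last sum was 3092 CPM. Fam19a4, P2ry1, Th and Piezo2 summed to 2242 CPM in the Cd34 group and to at most 895 CPM in the other 6. Nefl, Nefm, S100b, Spp1 and Pvalb summed to 26132 CPM in the Nefh and 16436 CPM in the Trpm8 group. Of the Nefh group's sum, Nefl gave 12878 CPM and Nefm 11542 CPM. The Mrgpra3 group did not stand out by its own list, since Mrgprx1, Mrgprb5 and Plxnc1 summed to 606 CPM there and to 623 CPM in the Mrgprd group. Plxnc1 alone gave 529 and 563 CPM of these sums. The study also reports trigeminal Mrgprx1 mainly outside the Mrgpra3 cluster, so this list is a weak check of the group. The glial genes Mbp, Fabp7 and Apoe summed to 42.3 to 204.5 CPM in the 7 groups, with the highest values in the Cd34 group and, at 163 CPM, the Nefh group. They summed to 2333 CPM in the neurons that met no gate and to 27258 CPM in 246 glial barcodes (3 or more UMIs of Mbp, the myelin basic protein). The glial value is partly set by this limit, since Mbp is in the sum. Barcodes with at most 1 of the 6 neuronal genes served as the background. They were the glial barcodes, with a median of 1497 UMIs, 616 erythroid barcodes (2 or more Alas2 UMIs) with a median of 1299, and 24 endothelial barcodes (2 or more Cldn5 UMIs). Their counts can hold transcripts of their own cells as well as free RNA, and these were not separated.

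The family to which a member belongs can be read from the end of its coding sequence, which forms the tail of the protein that touches the receptor. Pertussis toxin, the tool by which Gi and Go signaling is usually blocked, acts on a cysteine at the fourth residue from this tail's end. The last 30 coding bases of 9 members, stop codon included, are shown with the codon of that residue in capitals, 5′ to 3′ on the coding strand, from the GENCODE M21 transcripts of the GRCm38 assembly.
Gnaq, chr19:16383365-16383394, plus strand: ctgaacctgaaggagTACaatctggtctaa
Gna11, chr10:81530795-81530824, minus strand: ctgaacctgaaggagTACaacctggtgtga
Gna14, chr19:16609501-16609530, plus strand: ctaaacctacgggagTTCaacttggtgtaa
Gnai1, chr5:18267019-18267048, minus strand: aataacctaaaagacTGTggtctcttctaa
Gnai2, chr9:107615635-107615664, minus strand: aacaacctgaaggacTGTggcctcttctga
Gnai3, chr3:108109422-108109451, minus strand: aacaacttaaaggaaTGTgggctttattga
Gnao1, chr8:93967026-93967055, plus strand: aacaatctccggggcTGCggcttgtactga
Gnaz, chr10:75015183-75015212, plus strand: aacaatctcaagtacATCggcctttgctga
Gnas, chr2:174346359-174346388, plus strand: atgcatctccgccaaTACgagctgctctaa
The codon is TGT or TGC, for cysteine, in Gnai1, Gnai2, Gnai3 and Gnao1. It is another codon in Gnaz, Gnaq, Gna11, Gna14 and Gnas.

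Levels are given as CPM with exact Poisson 95% intervals, and the ratio of a group to all other neurons as a log2 ratio with an exact conditional binomial 95% interval. These intervals, like the Clopper-Pearson intervals of shares, cover counting error only and not the spread between mice or runs. Those of levels, ratios and shares of UMIs also leave out the spread between cells. Groups are thus called apart or overlapping by counting error alone. CPM is a share of all UMIs in a group, so a change of a gene cannot be told apart from a change of the total. Each UMI stands for 1 transcript whatever its length, but genes differ in how well their 3′ ends are captured, so levels are compared for 1 gene between groups rather than between genes. A gene was called when its ratio was at least 2-fold in either direction, among genes with at least 20 UMIs expected in the group.

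The Mrgprd group had the most alpha subunit genes past 2-fold. In it, 4 of 10 members were at least 2-fold higher (5.12% of the 10276 genes tested) and 1 of 10 was at least 2-fold lower (13.9%). In the Mrgpra3 group 3 of 10 were higher (2.67% of 3403 genes) and none was lower (7.46%), and in the Nppb group 1 of the 9 members with enough expected UMIs was higher (2.16% of 3008 genes) and none was lower (7.55%). In the Trpm8 group none was higher (2.73% of 9331 genes) and 2 of 10 were lower (11.8%). In the Cd34 group none was higher (3.44% of 10160 genes) and 2 of 10 were lower (9.07%), and in the Nefh group none was higher (4.28% of 10352 genes) and 3 of 10 were lower (7.94%). With every neuron that had an Mbp UMI left out, a choice made after seeing the data, 6 of 10 were lower in the Nefh group (Gnai2, Gnai3 and Gnal besides Gnaq, Gna14 and Gnao1), against 7.64% of the 8889 genes tested that way. With the gates applied in reverse order, none of 10 was called in the Nefh group. In the Calca group none of 10 was called in either direction, against 4.73% of 11098 genes higher and 8.15% lower. The median log2 ratio of the members was 0.51 in the Mrgprd group, 0.52 in the Nppb group and 0.36 in the Mrgpra3 group, while the median of all genes tested was -0.11, -0.04 and -0.10. It was -0.82 in the Nefh group, -0.60 in the Trpm8 group and -0.44 in the Cd34 group, with medians of all genes of -0.09, -0.11 and -0.03.

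**Figure D1:**
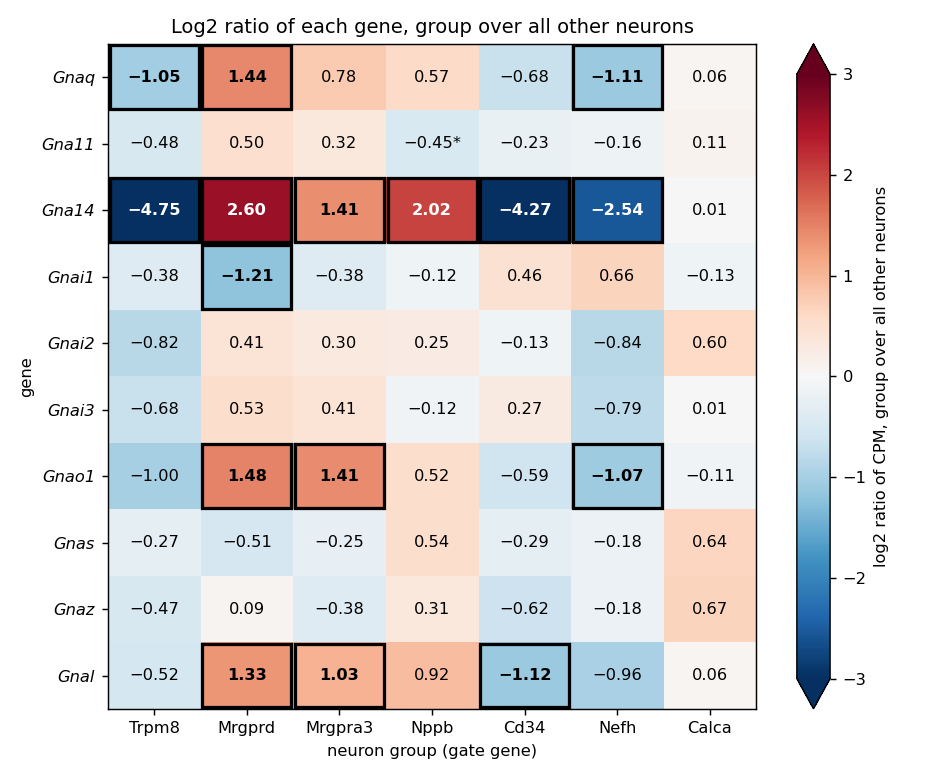
Log2 ratio of the CPM of each alpha subunit gene (rows) in each neuron group (columns) over all other neurons. Boxed bold values are at least 2-fold, the asterisk marks a gene with under 20 expected UMIs, and colors saturate at 3. Gna14 holds the extremes, from -4.75 in the Trpm8 group to 2.60 in the Mrgprd group, and the Calca column has no boxed value.

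Gna14 was the member that varied most between the groups. It encodes a Gq family subunit that many tissues lack. Its level was 313 CPM (252 to 386) in the Nppb group, 271 CPM (254 to 290) in the Mrgprd group and 207 CPM (161 to 263) in the Mrgpra3 group. Intervals of neighbours in this order overlapped, so the 3 groups could not be ranked. The Calca group followed with 80.5 CPM (72.7 to 88.9) and the Nefh group with 15.9 CPM (11.9 to 20.7). At the bottom were the Cd34 group with 4.85 CPM (2.71 to 7.99), from 15 UMIs, and the Trpm8 group with 3.30 CPM (1.33 to 6.80), from 7 UMIs. These last 2 levels lay within or below those of the background, which was 3.34 CPM (0.688 to 9.75) in erythroid and 6.58 CPM (1.36 to 19.2) in glial barcodes.

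Against all other neurons, Gna14 was 6.04-fold higher in the Mrgprd group (log2 2.60, 2.46 to 2.74), 4.07-fold higher in the Nppb group (log2 2.02, 1.70 to 2.33) and 2.65-fold higher in the Mrgpra3 group (log2 1.41, 1.03 to 1.76). In the Nppb group the ratio was called under 7 of 14 alternatives, with log2 values of 1.59 to 2.31 over all 14 and under 20 UMIs expected in the other 7. In the Mrgpra3 group, where 21 of the 49 cells also met another gate, the log2 ratio was 1.57 without those cells and 0.72 after thinning to 1000 UMIs, both with under 20 UMIs expected. It was 5.83-fold lower in the Nefh group (log2 -2.54, -2.96 to -2.15). The Trpm8 group was 26.9-fold lower (log2 -4.75, -6.07 to -3.71) and the Cd34 group 19.3-fold lower (log2 -4.27, -5.11 to -3.54). The call in the Trpm8 group was made under 13 of 14 alternatives and not after thinning, with log2 values of -6.18 to -3.64 over all 14. Of all genes tested, 99.4% had a larger log2 ratio than Gna14 in the Trpm8 group, 99.5% in the Cd34 group and 0.545% in the Mrgprd group. The Calca group, at log2 0.01 (-0.16 to 0.17), did not differ from the rest. With cells that met over 1 gate left out, none of the 95 remaining Trpm8 neurons had a Gna14 UMI, which allows up to 5.94 CPM (3 counts of the total). With the gates applied in reverse order, which puts 709 cells in the Nefh group, its Gna14 ratio was -0.83 on the log2 scale and no longer 2-fold.

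Cell by cell the picture was the same. A Gna14 UMI was found in 75.2% (70.5 to 79.5%) of Mrgprd, 63.2% (49.3 to 75.6%) of Nppb and 59.2% (44.2 to 73.0%) of Mrgpra3 neurons. In the Trpm8 group the share was 2.05% (0.669 to 4.72%) and in the Cd34 group 2.81% (1.29 to 5.27%), beside 1.22% (0.252 to 3.52%) of glial and 0.487% (0.101 to 1.42%) of erythroid barcodes, which were shallower. Thinned at random to 1000 UMIs a cell, the shares were 26.9% in the Mrgprd, 26.3% in the Nppb, 20.4% (10.2 to 34.3%) in the Mrgpra3, 0.410% in the Trpm8 and 0.625% in the Cd34 group, against 0.813% of glial barcodes. Before thinning, the intervals of the Trpm8 and Cd34 groups thus overlapped that of glial barcodes, and whether these UMIs are free RNA was not tested. Of the 7 Gna14 UMIs in the Trpm8 group, the 95 cells that met no other gate had 0. The 128 that also met the Nefh gate had 3, and the 19 that also met the Calca gate had 4.

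In the Calca group 23.4% of cells had a Gna14 UMI, whereas 30.6% would have had one if each cell carried Gna14 at the same rate per UMI. In the Mrgprd group these values were 75.2% and 73.8%. The Calca group was therefore split by the UMIs of genes that mark classes of peptidergic neurons in the study, a choice made with values of these data known. Gna14 was at 179 CPM in the 131 cells with a UMI of Mfap5 and at 60.5 CPM in the 785 without (log2 1.56, 1.26 to 1.86). It was at 154 CPM with and 68.6 CPM without Gpr83 (log2 1.16, 0.83 to 1.49), and at 110.0 CPM with and 43.5 CPM without the irritant channel Trpa1 (log2 1.34, 0.999 to 1.69). With Fam150b it was at 111 CPM and without at 73.0 CPM (log2 0.60, 0.27 to 0.93). The order turned for the other 4 genes. It did so most for Cyp1b1, with 40.9 CPM in the 303 cells that had a UMI of it and 114 CPM in the 613 that had none (log2 -1.48, -1.83 to -1.13). The log2 ratio was -0.98 (-1.32 to -0.64) for Kcnk3, -0.83 (-1.14 to -0.53) for Kit and -0.83 (-1.35 to -0.35) for Sstr2. Cells with a UMI of a marker were deeper in each case, for example with a median of 4668 against 3434 UMIs for Mfap5 and of 5497 against 3048 for Cyp1b1. No other member differed by 2-fold in any of the 8 splits of the Calca group.

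Within the Nefh group, Gna14 was at 23.1 CPM in the 190 cells with a UMI of Calca and at 4.55 CPM, from 6 UMIs, in the 260 without (log2 2.35, 1.12 to 3.86). In the Mrgprd group, neither Agtr1a nor Otoa moved any member by 2-fold, with ratios between 0.75 and 1.16.

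**Figure D2:**
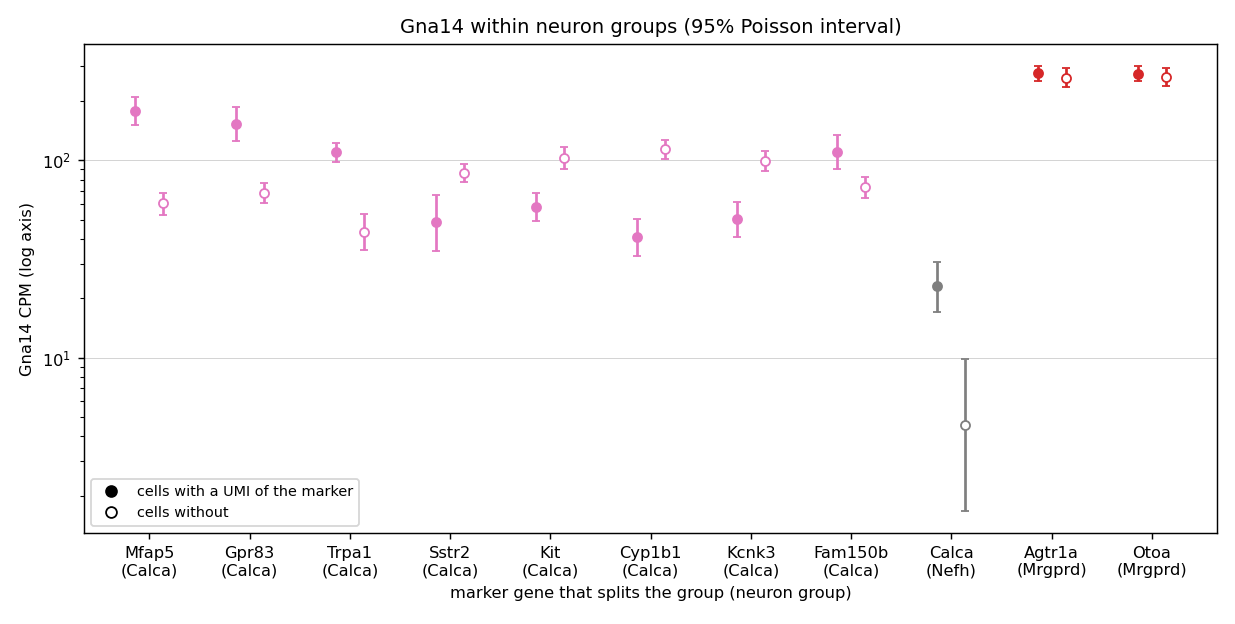
Gna14 level in CPM (log axis) in cells with (filled) and without (open) a UMI of the marker gene named under each pair, with the neuron group in parentheses and exact Poisson 95% intervals. In the Calca group the level is 179 against 60.5 CPM for Mfap5 and 40.9 against 114 CPM for Cyp1b1, while the pairs of the Mrgprd group overlap.

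Gnaq, the widely used Gq subunit, lies next to Gna14 on chromosome 19 (16132831 to 16387463, Gna14 from 16435762 to 16610820, both on the plus strand). Its level was 860.1 CPM (829 to 892) in the Mrgprd, 681 CPM (594 to 777) in the Mrgpra3 and 592 CPM (506 to 688) in the Nppb group. The Calca group had 415 CPM (397 to 434), the Cd34 group 266 CPM (248 to 285), the Trpm8 group 206 CPM (187 to 226) and the Nefh group 205 CPM (190 to 220.4). The last 2 overlapped, as did the Mrgpra3 and Nppb groups. Gnaq was thus 2.71-fold higher in the Mrgprd group (log2 1.44, 1.37 to 1.51), 2.15-fold lower in the Nefh group (log2 -1.11, -1.22 to -0.99) and 2.06-fold lower in the Trpm8 group (log2 -1.05, -1.19 to -0.91). Unlike Gna14, it stayed above background in every group, with 138 CPM in glial and 24.5 CPM in erythroid barcodes.

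Within the Trpm8 group, Gnaq was lower in the cells that also met the Nefh gate. It was 153 CPM (132 to 176) in these 128 cells, with a median of 6259 UMIs a cell, and 307 CPM (260.4 to 359) in the 95 that met no other gate, with a median of 3511. Without all cells that met over 1 gate, the log2 ratio of the Trpm8 group was -0.37 and no longer 2-fold, and with the gates applied in reverse order it was -0.40. It was also under 2-fold with cells weighted equally and after thinning, and was called under 10 of 14 alternatives, with log2 ratios of -1.17 to -0.37 over all 14. In that order the Gnaq ratio of the Nefh group was -0.61. A UMI of Gnaq was found in 93.9% (91.0 to 96.1%) of Mrgprd and in 60.4% (55.8 to 65.0%) of Nefh neurons, and in 57.0% and 20.4% of them after thinning.

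Gna11, on chromosome 10 from 81528724 to 81545190 and closely related to Gnaq, moved far less. It ranged from 49.3 CPM (26.9 to 82.7) in the Nppb group, with 14 UMIs, to 88.9 CPM (79.0 to 99.8) in the Mrgprd group, and the interval of each group overlapped that of the next. None of the 7 ratios reached 2-fold. The UMIs of Gna11 per 100 of Gnaq fell in order of the Gnaq level, from 29.9 in the Nefh to 10.3 in the Mrgprd group, except for 8.3 in the Nppb group. Since Gna11 moved little and Gnaq is the divisor, this order largely restates the Gnaq levels. Some neighbours overlapped, such as the Nefh (25.5 to 35.0) and Trpm8 groups (19.3 to 29.9). Gna14 reached 53.0 UMIs per 100 of Gnaq in the Nppb group and 1.6 in the Trpm8 group.

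**Figure D3:**
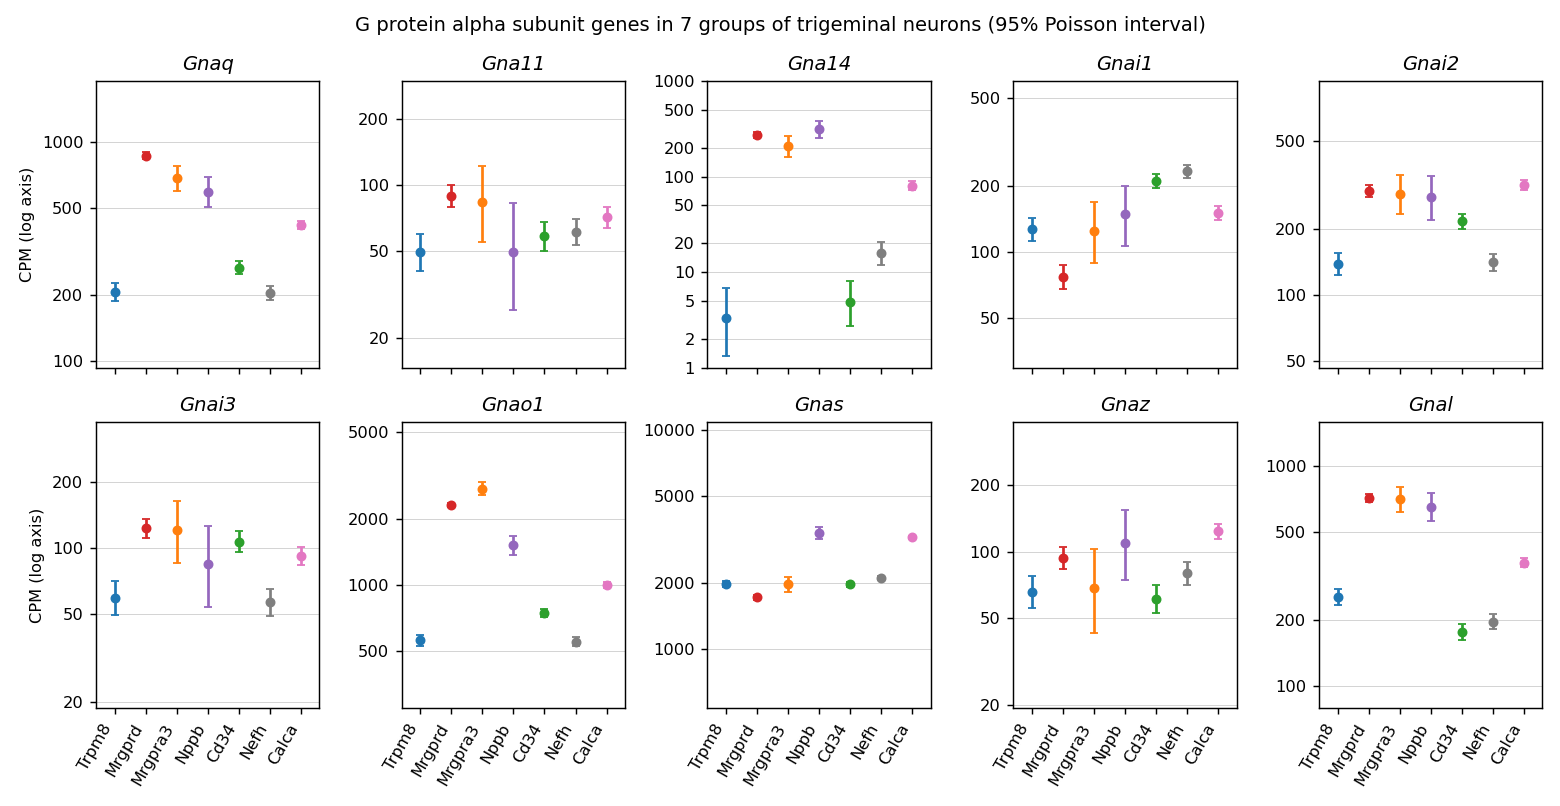
Level of the 10 alpha subunit genes in CPM (log axes) in the 7 neuron groups, with exact Poisson 95% intervals and a separate axis for each gene. Gna14 spans 3.30 to 313 CPM and has a wider axis, Gnaq, Gnao1 and Gnal share high levels in the Mrgprd, Mrgpra3 and Nppb groups, and Gnai1 is lowest in the Mrgprd group.

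Gnao1, on chromosome 8 from 93809966 to 93969388, encodes the subunit of Go, which is abundant in neurons. Its level was highest in the Mrgpra3 group, at 2754 CPM (2576 to 2941), followed by the Mrgprd group, at 2323 CPM (2271 to 2376). The Nppb group had 1518 CPM (1378 to 1668), the Calca group 1004 CPM (976 to 1033) and the Cd34 group 745 CPM (715 to 776). The Trpm8 group with 562 CPM (530.5 to 595) and the Nefh group with 554 CPM (529 to 579) overlapped, and all other neighbours were apart. Gnao1 was 2.79-fold higher in the Mrgprd group (log2 1.48, 1.44 to 1.52), 2.65-fold higher in the Mrgpra3 group (log2 1.41, 1.31 to 1.504) and 2.10-fold lower in the Nefh group (log2 -1.07, -1.14 to -1.004). In the Trpm8 group it was just short of 2-fold (log2 -0.997, -1.08 to -0.91). With the gates in reverse order the Nefh group was at log2 -0.45. Every one of the 379 Mrgprd neurons had a Gnao1 UMI, with a median of 13, and 91.3% still had one after thinning, against 40.7% in the Nefh group. Glial barcodes had 138 CPM and erythroid barcodes 40.02 CPM.

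The 3 Gi genes, whose products inhibit adenylyl cyclase, went different ways. Gnai1, on chromosome 5 from 18265135 to 18360355, was the one member at least 2-fold lower in the Mrgprd group, with 76.4 CPM (67.2 to 86.5) and a 2.31-fold difference (log2 -1.21, -1.40 to -1.02). It was highest in the Nefh group at 232 CPM (216 to 249) and the Cd34 group at 210.0 CPM (194 to 227), which overlapped. The Calca, Nppb, Trpm8 and Mrgpra3 groups lay between, at 149.9, 148, 126 and 124 CPM, and each overlapped the next. Glial barcodes had more Gnai1 than any neuron group, at 355 CPM (303 to 414), and 37.8% of them had a UMI. In the Nefh group the log2 ratio was 0.66 (0.54 to 0.78). With every neuron that had an Mbp UMI left out, the log2 ratio was 0.78 in the Nefh and -1.14 in the Mrgprd group.

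Gnai2, on chromosome 9 from 107614125 to 107635367, was at 317 CPM (301 to 333) in the Calca, 297 CPM (278 to 316) in the Mrgprd, 288 CPM (232 to 353) in the Mrgpra3 and 278 CPM (220.3 to 347) in the Nppb group. These overlapped. It was lowest in the Nefh group at 141 CPM (128 to 154) and in the Trpm8 group at 139 CPM (123 to 155), with log2 ratios of -0.84 and -0.82. In endothelial barcodes it reached 761 CPM (520.4 to 1074), from 32 UMIs. Gnai3, on chromosome 3 from 108107280 to 108146146, ran between 56.8 CPM (49.1 to 65.4) in the Nefh and 123 CPM (112 to 136) in the Mrgprd group, and each group overlapped the next. Neither gene was 2-fold different in any group. In the Trpm8 group, Gnai2 was at 169 CPM in the 139 cells with a UMI of galanin (Gal) and at 88.6 CPM in the 105 without (log2 0.93, 0.54 to 1.34), and these cells had medians of 7125 and 3634 UMIs. This was not particular to Gnai2. Gnai3 was at 72.0 against 38.7 CPM (log2 0.90, 0.30 to 1.53) and Gnaq at 243 against 144 CPM (log2 0.76, 0.45 to 1.08). Only Gnai1 and Gnaz were lower with Gal (log2 -0.02 and -0.11).

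Gnaz encodes a subunit that also inhibits adenylyl cyclase but lacks the cysteine, as its codon above shows. It lies on chromosome 10 from 74967177 to 75016907. Its level was 124 CPM (114 to 134) in the Calca, 109 CPM (74.2 to 155) in the Nppb and 93.2 CPM (83.1 to 104) in the Mrgprd group, and 60.7 to 79.8 CPM in the other 4. The log2 ratio of the Calca group was 0.67 (0.53 to 0.81), the highest of the 10 members in that group. Only 0.813% of glial and 0.649% of erythroid barcodes had a Gnaz UMI, the lowest background of the 10 genes in glial barcodes.

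Gnas, the common Gs subunit, lies on chromosome 2 from 174284320 to 174346744. Its locus also makes longer transcripts that share its 3′ exons, which a 3′ count cannot separate. Its level was 3370.1 CPM (3159.9 to 3591) in the Nppb group and 3219 CPM (3169 to 3270.2) in the Calca group, which overlapped, and 2103 CPM (2055 to 2152) in the Nefh group. The Trpm8, Cd34 and Mrgpra3 groups had 1974, 1968 and 1965 CPM. The Mrgprd group was lowest at 1719 CPM (1674 to 1765). No ratio reached 2-fold, and the Calca group had the largest at log2 0.64 (0.61 to 0.66). Gnas was also high outside the neurons, with 924 CPM in glial barcodes, 1068 CPM in erythroid barcodes, of which 62.2% had a Gnas UMI, and 2235 CPM (1806 to 2735) in endothelial barcodes, which overlapped the Trpm8, Mrgpra3, Cd34 and Nefh groups and lay above the Mrgprd group. Barcodes with an Epcam UMI and 100 or more UMIs of growth hormone (Gh), of which the table holds 422, had 7954 CPM of Gnas. Gh itself was at 183 to 843 CPM in the 7 neuron groups, and its part in the Gnas levels was not tested. Gm20721, which overlaps Gnas on the opposite strand, was at 29.1 to 108 CPM, and whether counting used the strand is not given in the sources used here.

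Gnal encodes Golf, the Gs family subunit known from olfactory neurons and the striatum. It lies on chromosome 18 from 67088216 to 67226792 on the plus strand. In trigeminal neurons its level was 715 CPM (686 to 744) in the Mrgprd, 708 CPM (620 to 806) in the Mrgpra3 and 655 CPM (564 to 756) in the Nppb group, which overlapped. It was 363 CPM (347 to 381) in the Calca and 253 CPM (232 to 276) in the Trpm8 group, and lowest in the Nefh group at 196 CPM (181 to 211) and the Cd34 group at 175 CPM (161 to 191), which overlapped. The Mrgprd group was 2.51-fold higher than all other neurons (log2 1.33, 1.26 to 1.40), the Mrgpra3 group 2.05-fold higher (log2 1.03, 0.84 to 1.22) and the Cd34 group 2.18-fold lower (log2 -1.12, -1.25 to -0.997). The Nppb group, at log2 0.92 (0.70 to 1.13), was just short of 2-fold. Thinned to 1000 UMIs, the log2 ratio was 0.96 in the Mrgprd and 0.84 in the Mrgpra3 group. Even the lowest group was above the background of 17.5 CPM (7.58 to 34.6) in glial and 14.5 CPM (7.70 to 24.7) in erythroid barcodes. Mppe1, which overlaps Gnal on the opposite strand, was at 5.01 to 24.8 CPM in the 7 groups. The protein-coding gene Chmp1b overlaps Gnal on the same strand and is not among the genes of the deposited counts, so its level could not be read. Whether its reads were counted under Gnal was not tested.

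The make-up of the alpha subunit pool followed from these levels. The 10 genes together took 6998 CPM in the Mrgpra3, 6567 CPM in the Mrgprd and 7117 CPM in the Nppb group, but 3438 CPM in the Trpm8, 3644 CPM in the Nefh, 3812 CPM in the Cd34 and 5836 CPM in the Calca group. Gnas made up 57.4% of these UMIs in the Trpm8 and 57.7% in the Nefh group, and 26.2% in the Mrgprd and 28.1% in the Mrgpra3 group. Gnao1 took 35.4% in the Mrgprd and 39.3% in the Mrgpra3 group and 15.2 to 21.3% elsewhere. These shares are of captured 3′ ends, so they compare 1 gene between groups and do not rank the genes within a group. The 4 genes with the cysteine codon (Gi and Go) together held 46.9% (44.9 to 49.0%) in the Mrgpra3 and 42.9% (42.3 to 43.6%) in the Mrgprd group. Their share was 33.5% (32.7 to 34.4%) in the Cd34 group and 25.8 to 28.5% in the other 4. The Gq family held 18.6% in the Mrgprd, 13.9% in the Mrgpra3 and 13.4% in the Nppb group, and 7.52 to 9.71% in the rest.

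**Figure D4:**
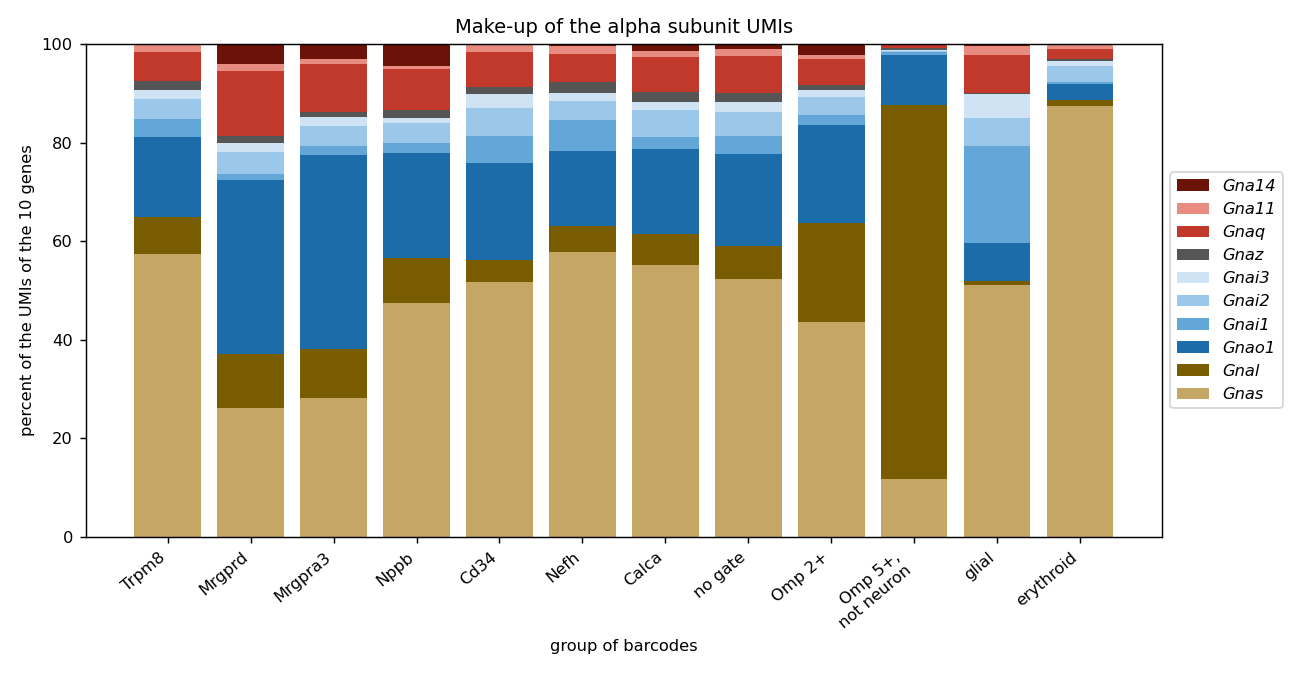
Percent of the UMIs of the 10 alpha subunit genes taken by each gene, in the 7 neuron groups, the neurons that met no gate, barcodes with Omp UMIs, and glial and erythroid barcodes. Gnas falls to 26.2% in the Mrgprd group, where Gnao1 takes 35.4%, and Gnal takes 75.9% in Omp barcodes with 5 or more Omp UMIs that do not pass as neurons.

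Seen per cell, a neuron had a UMI of a median of 5 of the 10 genes, and 32 of 3855 neurons had none. The median was 7 in the Mrgprd and Mrgpra3 groups and 5 in the Trpm8 and Nefh groups. Thinned to 1000 UMIs, a Mrgprd neuron had on average 3.69 of the 10 genes, a Nppb neuron 3.54 and a Trpm8 neuron 2.07, against 1.34 for glial and 0.640 for erythroid barcodes. Of the neurons, 96.6% had a UMI of the Gs family, 83.1% of Gnao1, 72.6% of the Gi family, 71.8% of the Gq family and 30.7% of Gnaz.

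For Gnal the neurons were set beside barcodes with 2 or more UMIs of Omp, the olfactory marker protein. The table holds 226 of these, with a median of 1421 UMIs, of which 68 pass as neurons and 158 do not. They are not uniform, since 6 have over 7500 genes and 1 of these has 94708 UMIs. The olfactory genes Stoml3, S100a5, Adcy3 and Cnga2 summed to 5530.1 CPM in them and to 20.9 CPM in the 3636 neurons without an Omp UMI. A stricter set, chosen after its values were seen, held the 130 barcodes with 5 or more Omp UMIs and at most 7500 genes that do not pass as neurons, and the same genes summed to 24843 CPM there. Its erythroid genes (Alas2, Hbb-bs, Hba-a1 and Hemgn) summed to 34822 CPM, against 5356 CPM in neurons without Omp. Its epithelial or pituitary genes (Epcam, Gh and Prl) summed to 8566 CPM, against 1034 CPM in those neurons, and the part of both lists in the values was not tested.

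Gnal was at 1042 CPM (985 to 1101) in the Omp barcodes and at 344 CPM in the neurons without Omp, a 3.03-fold difference (log2 1.60, 1.51 to 1.69). It was 1 of 10 members that were at least 2-fold higher (2.33% of the 7805 genes tested), none was lower (4.18%), and 0.871% of genes had a larger ratio. Without the 6 barcodes of over 7500 genes the log2 ratio was 2.05, and with 1 Omp UMI as the limit it was 0.78. In the stricter set Gnal was at 3662 CPM (3405 to 3932), 10.6-fold above the neurons (log2 3.41, 3.30 to 3.52). The Omp barcodes that also pass as neurons had 555 CPM, 1.61-fold above (log2 0.69, 0.52 to 0.86), which is less than in the Mrgprd group. Gnal was not restricted to Omp barcodes, since 58.0% of the neurons without Omp had a UMI of it. A Gnal UMI was seen in 92.9% (88.8 to 95.9%) of Omp barcodes and in 91.8% (88.6 to 94.4%) of the deeper Mrgprd neurons. Thinned to 1000 UMIs, the shares were 78.8% and 53.8%. In the stricter set they were 97.7% (93.4 to 99.5%) and 93.8%. Only 2.85% (1.15 to 5.77%) of glial and 1.95% (1.01 to 3.38%) of erythroid barcodes had one.

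The other alpha subunits were low in the stricter set. Gnas was at 571 CPM (472 to 684) there, 4.03-fold below the neurons (log2 -2.01, -2.28 to -1.75), and Gnao1 at 489 CPM (398 to 594), 2.19-fold below. Gnaq had 7 UMIs, Gnai1 6, Gnai3 and Gnaz 3 each, Gna11 2, Gnai2 1 and Gna14 none, of 206740 UMIs in all. In total 75.9% of the alpha subunit UMIs in this set were Gnal. For each 100 UMIs of Gnas there were 641.5 of Gnal, against 41.6 in the Mrgprd and 8.9 in the Cd34 group. In all Omp barcodes, by contrast, Gnas (2268 CPM) and Gnao1 (1033 CPM) differed little from the neurons (log2 -0.02, -0.08 to 0.04, and -0.05, -0.14 to 0.03), and the 5 barcodes with the most Gnas UMIs gave 37.9% of them.

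**Figure D5:**
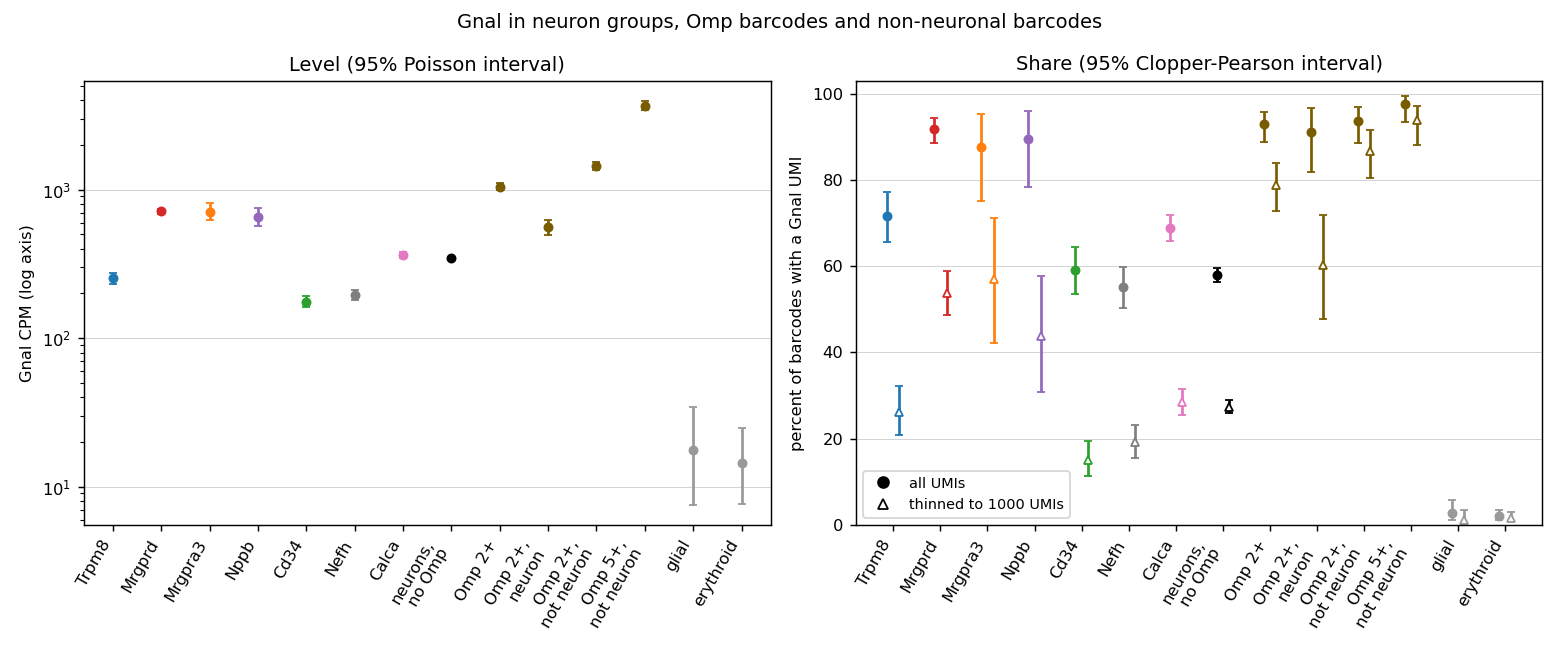
Left, Gnal level in CPM (log axis) with exact Poisson 95% intervals in the 7 neuron groups, neurons without Omp, 4 sets of Omp barcodes and background barcodes. Right, percent of barcodes with a Gnal UMI, from all UMIs (circles) and after thinning to 1000 UMIs (triangles), with Clopper-Pearson 95% intervals. The level runs from 14.5 CPM in erythroid barcodes to 3662 CPM in the stricter Omp set, and the Mrgprd group falls from 91.8% to 53.8% on thinning.

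The partners of the alpha subunits were taken from 8 lists of genes. Of all 11098 genes with enough UMIs in at least 1 of the 7 groups, 32.4% were at least 2-fold higher or lower in 1 or more of them. Among the genes of the lists with enough UMIs, this held for 3 of 5 beta subunits, 7 of 9 gamma subunits, 12 of 15 RGS proteins and 7 of 7 adenylyl cyclases. It held for 3 of 4 alpha subunit chaperones and GoLoco proteins, 2 of 3 phospholipases C beta, 1 of 2 other alpha subunits and the 1 GIRK channel. The lists also hold genes with too few UMIs, which were 6 of 21 RGS proteins, 2 of 11 gamma subunits, 3 of 10 adenylyl cyclases, 3 of 4 GIRK channels, 4 of 6 other alpha subunits and 1 of 4 phospholipases. In the Mrgprd group, 3 of the 13 RGS genes with enough UMIs were higher and 4 lower, and 2 of 6 adenylyl cyclases were higher and 3 lower. In the Cd34 group 2 of 13 RGS genes were higher and 7 lower, and 1 of 7 gamma subunits was higher and 5 lower. For these counts in 1 group, the shares of all genes called are those given above for that group.

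Of the phospholipases, which Gq family subunits activate, Plcb3 followed Gna14. It was at 355 CPM in the Mrgprd (log2 2.49), 312 CPM in the Mrgpra3 (log2 1.56) and 218 CPM in the Nppb group (log2 1.02), and at 9.90 CPM in the Trpm8 group, 12.1-fold lower than in all other neurons (log2 -3.60, -4.30 to -2.98). Plcb1 was lowest in the Mrgpra3 group with 12.4 CPM, from 4 UMIs (log2 -2.39, -4.27 to -1.03). Among the beta and gamma subunits, Gnb4 was at 677 CPM in the Mrgprd group and 145 CPM in all other neurons (log2 2.22, 2.14 to 2.30). Gnb5, the beta subunit that pairs with RGS proteins of the Rgs7 kind, was 2.26-fold higher in the Trpm8 group (log2 1.18, 0.71 to 1.62), and Gnb3 was 5.52-fold lower in the Calca group (log2 -2.46, -4.12 to -1.19). Gng12 was 12.6-fold lower in the Trpm8 group (log2 -3.66, -5.29 to -2.43) and Gng13 7.52-fold lower in the Mrgprd group (log2 -2.91, -4.05 to -1.97). With neurons that had an Omp UMI left out, an alternative chosen after seeing the data, Gng13 was at 2.26 CPM in the Mrgprd group and 12.7 CPM in all other neurons, 5.63-fold lower (log2 -2.49, -3.83 to -1.42). Gng4 had 1 UMI in the Mrgprd group (log2 -5.25, -10.57 to -2.76), and Gng8 had 1 in the Trpm8 group (log2 -4.74, -10.05 to -2.25).

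The RGS genes differed in direction. Rgs4 was at 4133 CPM in the Mrgpra3 group and 990 CPM in all other neurons (log2 2.06, 1.98 to 2.14), and Rgs7 at 101 against 24.2 CPM in the Mrgprd group (log2 2.06, 1.85 to 2.27). Also in the Mrgprd group, Rgs2 was 4.77-fold lower (log2 -2.25, -2.88 to -1.69) and Rgs9 had 1 UMI (log2 -5.56, -10.87 to -3.07). Among adenylyl cyclases, which Gs and Gi family subunits regulate, Adcy2 was 22.4-fold, Adcy3 14.3-fold and Adcy1 10.1-fold lower in the Mrgprd group, from 6, 4 and 6 UMIs. Adcy5 was 10.5-fold lower in the Trpm8 group (log2 -3.39, -4.53 to -2.46). Without neurons that had an Omp UMI, the log2 ratio was -5.45 (-10.76 to -2.96) for Adcy3, from 1 UMI, and -4.14 (-5.76 to -2.91) for Adcy5, from 5 UMIs, while the other genes named from the lists moved by less than 1.5-fold. Of these, Gpsm1 in the Trpm8 group was then 1.89-fold lower and no longer called, and Gnb3 in the Calca and Plcb1 in the Mrgpra3 group had under 20 UMIs expected, at log2 ratios of -2.51 and -2.24. In Omp barcodes Adcy3, the cyclase that Golf drives in olfactory neurons, was at 183 CPM (log2 3.95) and Gng13 at 674 CPM (log2 5.94) against neurons without Omp. Gpsm3, which holds alpha subunits in their GDP-bound form, was 11.1-fold lower (log2 -3.47, -5.36 to -2.11) and Gpsm1 2.03-fold lower in the Trpm8 group, and Gpsm2 was 2.44-fold lower in the Calca group. The other alpha subunit Gna12 was 2.49-fold lower in the Trpm8 group (log2 -1.31, -1.93 to -0.76). Kcnj3, a GIRK channel subunit opened by beta-gamma dimers, had 2 UMIs in the Cd34 group (log2 -3.88, -6.94 to -2.01).

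The genes most like each member were found by Pearson's r of log2(CPM + 10) over the 7 groups, among 3004 genes with enough UMIs in every group. With 7 points from 1 pooled sample these are descriptions only. Gnaq was most like Gng2 (r = 0.995), Ugcg (0.994) and Il6st (0.990), and Gna14 most like Prkcd (0.993), Carhsp1 (0.986) and Plcb3 (0.980). Gnao1 was most like Rad23b (0.995), Etnk1 (0.983) and Ssr3 (0.979), and Gnal most like Mal2 (0.981), Cttn (0.980) and Cab39l (0.979). Among the members, Gnao1 with Gnaq (0.97), Gnal with Gna14 (0.95) and Gna14 with Gnaq (0.945) had the highest r, and Gnal with Gnai1 the lowest (-0.76). Between 1 gene (for Gnai1) and 27 genes (for Gnao1) had an r over 0.95 with a member. For Gna11 the genes were Ptprf, Abhd17b and Arrb1, for Gnai1 Cplx2, Apbb1 and Akap6, for Gnai2 H2afy, Tmem50a and Pik3ip1, and for Gnai3 Prkx, AI413582 and Sec11a, with r from 0.942 to 0.992. For Gnas they were Tmem57, Ttc33 and Hsbp1, and for Gnaz Riok3 and Anapc11 were among them, with r from 0.928 to 0.981.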

How the data were processed

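The authors sequenced 9 Dropseq runs of dissociated trigeminal ganglia and deposited 1 table of UMI counts per gene and barcode, without normalization. Per the labels, reads were split with bcl2fastq 2.17, aligned to mm10 with STAR 2.5.3a and handled in Seurat 1.4.0.16, and the read counter is not given in the sources used here. The table's 6997 columns name no run, so none was mapped to 1 of the 9 samples, and 6 barcode sequences occur in 2 columns each. No barcode has under 1000 UMIs.

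Barcodes were gated as the report states. The counts of a group were summed and divided by its total UMIs (CPM), with Python 3.11.15, numpy 2.4.6, scipy 1.17.1, pandas 2.3.3 and matplotlib 3.10.9. Shares were also taken after each cell was thinned to 1000 UMIs without replacement. A count of 0 was given a limit of 3 counts. No doublet caller was run, and cells that met over 1 gate were left out in an alternative. The ratio, interval and 2-fold call were tested on simulated data. Gene positions and coding sequences are from GENCODE M21 (GRCm38), the assembly of mm10. Genes that share a locus or a 3′ end cannot be separated.

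The members and gene lists were chosen with earlier results of these data known. Named genes were all 10 members, up to 4 called genes per list with the largest ratio, the 3 genes most like each member, and markers. Ric8a and Gngt1 were not analysed here, and some marker and other genes are not reported here. Alternatives were other gates, gate orders, neuron limits, weights, depths and references.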

Additional observations from a re-analysis of the deposited data

How the results depend on the processing

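Each of the 70 ratios of a member in a group was recomputed under 14 alternatives. Of these 980 values, 826 lay within the counting interval of the reported value, 154 lay outside it, and no called ratio changed sign. Dropping the limit on expected UMIs, 1 of the 14, alters only which ratios can be called. Its values could therefore not leave the interval. The 2-fold calls of Gna14, Gnaq, Gnao1 and Gnai1 in the Mrgprd group, of Gnao1 in the Mrgpra3 group and of Gna14 and Gnal in the Cd34 group were made under all 14. The count of called members moved by over 1.5 times in 4 groups. In the Nppb group it was 1 and became 0 with gates raised by 1 UMI, with neurons that had an Omp or an Mbp UMI left out and after thinning, and 2 with cells weighted equally. There the Gna14 ratio stayed between 1.59 and 2.31 on the log2 scale but was called under only 7 of 14, since its expected count fell under 20 in the other 7. In the Trpm8 group the count was 2 and became 1 with cells that met over 1 gate left out, with gates in reverse order and with equal weights, and 0 after thinning. In the Mrgpra3 group it was 3 and became 1 after thinning. In the Nefh group it was 3 and became 6 with neurons that had an Mbp UMI left out, chosen after seeing the data, and 0 with gates in reverse order, which put 709 instead of 450 cells in the group, with log2 ratios of -0.61 for Gnaq, -0.83 for Gna14 and -0.45 for Gnao1. The log2 ratio of Gnal in Omp barcodes was 1.60 and became 2.93 with 5 Omp UMIs, 0.78 with 1 Omp UMI, 2.06 in barcodes that do not pass as neurons, 3.10 after thinning, and 3.10 with equal weights. Under alternatives chosen after seeing the data it was 2.05 without barcodes of over 7500 genes and 3.41 in the stricter set. In the Mrgpra3 group the calls of Gnal and of Gna14 were each made under 10 of 14, with log2 ratios of 0.84 to 1.24 and of 0.72 to 1.60. The other causes were not tested. Leaving the 50 most abundant genes out of the totals shifted ratios by at most 0.02 on the log2 scale. No paired analysis was possible because the columns carry no run or replicate number, and for the same reason no run could be left out. Depth limits the Mrgpra3 and Nppb groups, which hold 323222 and 283972 UMIs.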

Other observations

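Among barcodes outside the neurons, those with Epcam and pituitary hormone UMIs had the most Gnas. It was at 7954 CPM in the 422 barcodes with 100 or more UMIs of Gh, where it made up 93.8% of the alpha subunit UMIs, and at 16747 CPM in the 154 barcodes with 100 or more UMIs of prolactin (Prl) and fewer of Gh, where it made up 95.5%. The 10 alpha subunit genes together took 8476 and 17532 CPM in these barcodes. Gnai1 made up 19.6% of the alpha subunit UMIs in glial barcodes, against 1.16 to 6.38% in the 7 neuron groups, and Gnai2 made up 22.7% in endothelial barcodes, from 32 of 141 UMIs.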
